A study of Mus musculus with 12 samples.

Results

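The 8 genes of hyaluronan metabolism were followed across the 4 groups of a study of mouse mesenchymal stem cell lines: the synthases Has1, Has2 and Has3, the hyaluronidases Hyal1 and Hyal2, the receptor Cd44, and the hyaluronan-binding proteins Tnfaip6 and Vcan. They were the 8 genes of that name among the 21881 genes of the deposited expression table, and they were chosen by their role and by their levels in these same libraries. Their differences between groups are therefore given as a description, without p-values. Polyadenylated RNA had been sequenced from 12 libraries, 3 per group.

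The KO_let-7g group held Dicer -/- cells that received a synthetic let-7g duplex, and the KO_siNr6a1 group held Dicer -/- cells that received an siRNA against Nr6a1. The KO_siCtrl group held Dicer -/- cells given a nontargeting siRNA, and the WT_siCtrl group held Dicer f/f cells, in which the allele is floxed, given the same nontargeting siRNA. All 4 groups were immortalized monoclonal lines of C57BL/6 origin, transfected at 20 nM with a lipid reagent and harvested after 48 hours. Every knockout group carried the Dicer deletion and every group had been transfected. The number of clones behind each genotype was not given, so the genotype and the line cannot be told apart. The labels do not say that libraries of 1 group came from separate cultures, so the spread between them may be technical. As these are bulk samples, fewer cells with a transcript and less transcript per cell cannot be told apart.

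Hyaluronan is a long unbranched sugar chain of the extracellular matrix, made at the plasma membrane by the Has enzymes from UDP-glucuronic acid and UDP-N-acetylglucosamine. Hyaluronidases cut it, Hyal2 at the cell surface and Hyal1 in lysosomes, while Cd44 is its main cell-surface receptor. Versican, the product of Vcan, is a large proteoglycan that binds the chain in the matrix, and Tnfaip6 encodes TSG-6, which transfers heavy chains of inter-alpha-inhibitor onto hyaluronan. Stromal cells of mesenchymal type are a common source of this matrix. Dicer cuts microRNA precursors, so Dicer -/- cells lack most mature microRNAs, and let-7 microRNAs bind messages mainly through the seed, bases 2 to 8 of the microRNA.

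The let-7g sequence is shown because it was the microRNA returned to the knockout cells, with its seed in capitals. It is the mature mmu-let-7g-5p of RefSeq on GRCm38.p6, from the plus strand of chr9:106178846-106178867; the sequence of the transfected duplex itself was not given in the sources used here. In that RefSeq table, 11 mature mouse microRNAs share the seed. Below it stand the stretches of the 3′ UTRs of 3 of the 8 genes, and of the hyaluronidase gene Tmem2, that hold a match to the seed. Capitals in these mark the match, all sequences run 5′ to 3′, and each UTR was taken from the annotated GRCm38 transcript with the longest 3′ UTR.

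mmu-let-7g-5p: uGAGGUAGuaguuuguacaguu
Hyal2: gacctgccaaTACCTCAagaatt
Hyal1: ttcattcactTACCTCAcacaag
Has2: ttgttctaaaTACCTCActtgcc
Tmem2: acagaacatgCTACCTCAaagtgc

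The longest of the 4 motifs searched was CTACCTCA, which pairs with the whole seed and has an A after it. The others lie within it: CTACCTC lacks that last letter, while the form TACCTCA lacks the first. The shortest one, TACCTC, lacks both. The transcript strand alone was read, and a site was counted once under its longest form. Hyal2, Hyal1 and Has2 each held 1 TACCTCA, which pairs with seed bases 2 to 7 and has an A after it. In Hyal2 it lay at base 919 of a 1621-base UTR (GRCm38 chr9:107572060-107572082, plus strand, for the bases shown). In Hyal1 it lay at base 393 of 1564 (chr9:107579797-107579819, plus strand), and in Has2 at base 312 of 2032 (chr15:56667335-56667357, minus strand). The Tmem2 UTR held the full CTACCTCA at base 1559 of 2009 (chr19:21857900-21857923, plus strand). Has3 held 1 TACCTC alone, and Has1, Cd44, Tnfaip6 and Vcan held none of the 4 motifs. Among the 17936 genes with an annotated 3′ UTR, 3.21% held CTACCTCA, 15.6% held a match of 7 or 8 bases and 24.3% held any of the 4, with a median UTR of 1026 bases. Of the other genes described below, Habp4 and Gfpt1 each held 1 CTACCTC. Pgm3 and Ugp2 each held 1 TACCTC, and Gusb, Cemip, Hexa, Layn, Stab1, Hmmr and Ptx3 held none. The Stab1 transcript taken was only 413 bases long with a 134-base UTR, so little sequence was searched for that gene. Of the pair with CTACCTC, Habp4 was called lower and Gfpt1 higher in KO_let-7g than in KO_siCtrl. These matches describe letters in the annotated UTRs, and no binding was measured.

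The depth of the libraries is not known in reads, because the table holds FPKM, the fragments of a transcript scaled by its length and by the fragments mapped in the library. The relative depth, read from the steps between low values and set to 1 for KO_siCtrl replicate 0, was 1.34 to 1.82 in KO_let-7g, 1.13 to 1.57 in KO_siNr6a1, 1 to 1.31 in KO_siCtrl and 1.11 to 1.29 in WT_siCtrl. Between 11032 and 11465 genes per library reached 1 FPKM. Of 8 mesenchymal markers, 7 averaged at least 1 FPKM in every group and Thy1 was at or near 0. Summed over the 8, they stood at 1960 to 2194 FPKM in KO_let-7g, 2107 to 2161 FPKM in KO_siNr6a1, 1712 to 1922 FPKM in KO_siCtrl and 3351 to 4020 FPKM in WT_siCtrl. Col1a1 averaged 236 ± 6.59 FPKM in KO_siCtrl and 778 ± 127 FPKM in WT_siCtrl, and Col1a2 283 ± 12.9 FPKM in KO_siCtrl and 1378 ± 109 FPKM in WT_siCtrl (SD, n = 3 each). Pdgfra and Vim were also lower in KO_siCtrl, while Pdgfrb overlapped between these groups. Ly6a and Nt5e went the other way, without overlap. Ly6a averaged 48.8 FPKM in KO_siCtrl and 17.8 FPKM in WT_siCtrl, and Nt5e 6.52 FPKM and 4.69 FPKM. The markers thus did not all move one way, and their part in the KO_siCtrl against WT_siCtrl results below was not tested. None of 7 blood or 4 endothelial markers averaged 1 FPKM in any group. Of 4 epithelial markers, 1 (Krt8) averaged 1 FPKM or more, and did so in KO_siCtrl. Nr6a1 averaged 4.22 ± 1.04 FPKM in KO_let-7g, 3.68 ± 0.539 FPKM in KO_siNr6a1, 11.7 ± 1.32 FPKM in KO_siCtrl and 1.12 ± 0.158 FPKM in WT_siCtrl (SD, n = 3 each). Dicer1 averaged 3.86 ± 0.214 FPKM in KO_siCtrl and 6.58 ± 1.45 FPKM in WT_siCtrl; whether its remaining reads lie outside the deleted exons cannot be read from gene-level values.

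Differences are given on the log2(FPKM + 1) scale with the standard error of limma's linear model over all 12 libraries. On that scale the changes of genes near or under 1 FPKM come out smaller than their ratios. A gene is called where the Benjamini-Hochberg adjusted p over the 11801 genes with at least 1 FPKM in at least 3 libraries was under 0.05. Of the 8 hyaluronan genes, 7 passed that filter, and Has3 did not. As the 8 were chosen by their levels in these libraries, a call of any of them is a description and not a test. A call kept in other settings rests on the same libraries and adds no support. Has1 passed through knockout libraries alone, so a difference from WT_siCtrl was fixed in part by the filter.

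On GRCm38 the annotated genes lie at chr17:17843323-17855205 (Has1), chr15:56665627-56694539 (Has2), chr8:106870242-106884566 (Has3), chr2:102811141-102901665 (Cd44), chr2:52038009-52056686 (Tnfaip6) and chr13:89655312-89742509 (Vcan), with Hyal1 and Hyal2 on chromosome 9. The sources used here do not say whether the strand was used in counting. Has2 overlaps the antisense gene Has2os, Has3 overlaps Chtf8, Hyal2 overlaps Gm9917, Cd44 overlaps Gm23731 and Vcan overlaps Gm4117 and the pseudogene Gm16318. These overlaps are of whole gene spans, introns included, and shared exons were not looked for. Where exons are shared and the strand was not used, reads of a partner cannot be told apart from those of the gene.

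**Figure D1:**
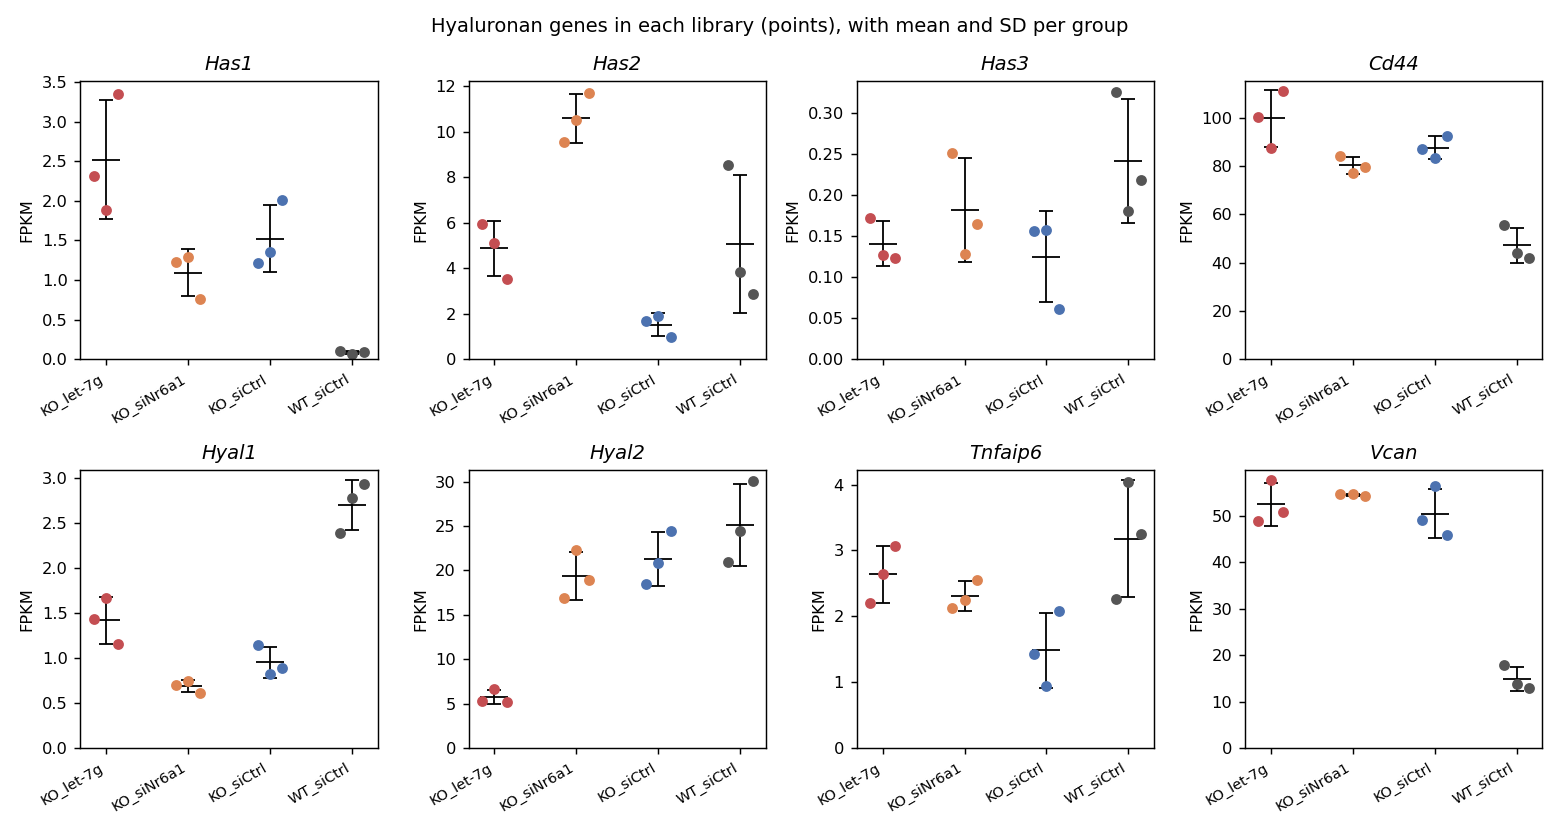
FPKM of the 8 hyaluronan genes in each library (points), with the mean (long bar) and SD (error bar) of the 3 libraries of each group; each panel has its own linear axis. Has2 is highest in the 3 KO_siNr6a1 libraries, at 9.55 to 11.7 FPKM, Hyal2 is lowest in the 3 KO_let-7g libraries, at 5.24 to 6.68 FPKM, and Has1 is under 0.11 FPKM in all 3 WT_siCtrl libraries.

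The order of the synthases by level differed between the groups. Has2 encodes the synthase needed for most hyaluronan in the mouse embryo. It measured 5.96, 5.12 and 3.55 FPKM in KO_let-7g and 9.55, 10.5 and 11.7 FPKM in KO_siNr6a1. It measured 1.70, 1.92 and 0.979 FPKM in KO_siCtrl and 8.53, 3.84 and 2.87 FPKM in WT_siCtrl. All KO_siCtrl libraries lay below all others, all KO_siNr6a1 libraries lay above all others, and KO_let-7g overlapped WT_siCtrl. WT_siCtrl replicate 0 stood high, and it was also the highest WT_siCtrl library for Has1, Has3, Cd44, Vcan and Dicer1. For Hyal1, Hyal2 and Tnfaip6 it was the lowest WT_siCtrl library.

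Has2 was lower in KO_siCtrl than in WT_siCtrl by a log2 difference of -1.17 ± 0.291, at 0.302 times the WT_siCtrl mean, and by -0.79 without WT_siCtrl replicate 0. It was higher in KO_let-7g than in KO_siCtrl by 1.21 ± 0.291, or 3.18 times the KO_siCtrl mean. In KO_siNr6a1 it was higher than in KO_siCtrl by 2.21 ± 0.291, or 6.91 times that mean. These 3 differences were called in every setting tested. KO_let-7g lay below KO_siNr6a1 by -0.998 ± 0.291, a call that was lost without KO_let-7g replicate 2 (-0.83) or without KO_siNr6a1 replicate 2 (-0.93). The KO_let-7g and KO_siNr6a1 comparisons share the 3 KO_siCtrl libraries, here and for every gene that follows.

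Has1, which encodes a synthase that makes less polymer and is induced in inflamed tissue, followed another order. It measured 2.32, 1.89 and 3.35 FPKM in KO_let-7g and 1.23, 1.29 and 0.756 FPKM in KO_siNr6a1. It measured 1.21, 1.35 and 2.01 FPKM in KO_siCtrl and 0.106, 0.0722 and 0.0965 FPKM in WT_siCtrl. The 9 knockout libraries all lay above the 3 WT_siCtrl libraries, and KO_siCtrl overlapped both of the other knockout groups. KO_siCtrl averaged 16.6 times the WT_siCtrl mean, a log2 difference of 1.2 ± 0.168. KO_let-7g lay above KO_siNr6a1 without overlap, by 0.74 ± 0.168.

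Against KO_siCtrl, Has1 differed by 0.47 ± 0.168 in KO_let-7g, a call lost in 9 of 21 other settings, and by -0.27 ± 0.168 in KO_siNr6a1, not called. The KO_let-7g call was lost without KO_siCtrl replicate 0 (0.38) or 1 (0.43) and without KO_let-7g replicate 0 (0.50) or 2 (0.31). Among the other settings that lost it was quantile scaling (0.30). Has3, a synthase of mostly shorter chains, measured 0.172, 0.127 and 0.123 FPKM in KO_let-7g and 0.251, 0.129 and 0.165 FPKM in KO_siNr6a1. It measured 0.156, 0.157 and 0.0616 FPKM in KO_siCtrl and 0.326, 0.181 and 0.218 FPKM in WT_siCtrl. Each group overlapped its neighbours in the order of the means, while KO_siCtrl, with the lowest mean, lay wholly below WT_siCtrl, with the highest. Has3 was not tested.

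Summed over the synthase genes, the level was 7.54 ± 0.791 FPKM in KO_let-7g, 11.9 ± 0.798 FPKM in KO_siNr6a1, 3.18 ± 0.22 FPKM in KO_siCtrl and 5.41 ± 3.10 FPKM in WT_siCtrl (SD, n = 3 each). Has2 made up a mean of 64.3% of that sum in KO_let-7g and 89.1% in KO_siNr6a1, against 47.8% in KO_siCtrl, and 93.0% in WT_siCtrl. Across libraries its share ran over 50.6 to 71.7% in KO_let-7g, 86.6 to 92.7% in KO_siNr6a1, 32.1 to 56.0% in KO_siCtrl and 90.1 to 95.2% in WT_siCtrl. The synthase transcripts were thus nearly all Has2 in WT_siCtrl and KO_siNr6a1, and mixed with Has1 in KO_let-7g and KO_siCtrl. Has1 made up a mean of 33.9% in KO_let-7g, 9.32% in KO_siNr6a1, 48.3% in KO_siCtrl and 1.99% in WT_siCtrl. Within KO_siCtrl, replicate 2 stood apart, with Has1 at 65.8% and Has2 at 32.1%. The ranges of the Has2 share in KO_let-7g and KO_siCtrl overlapped, and these shares were not tested.

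**Figure D2:**
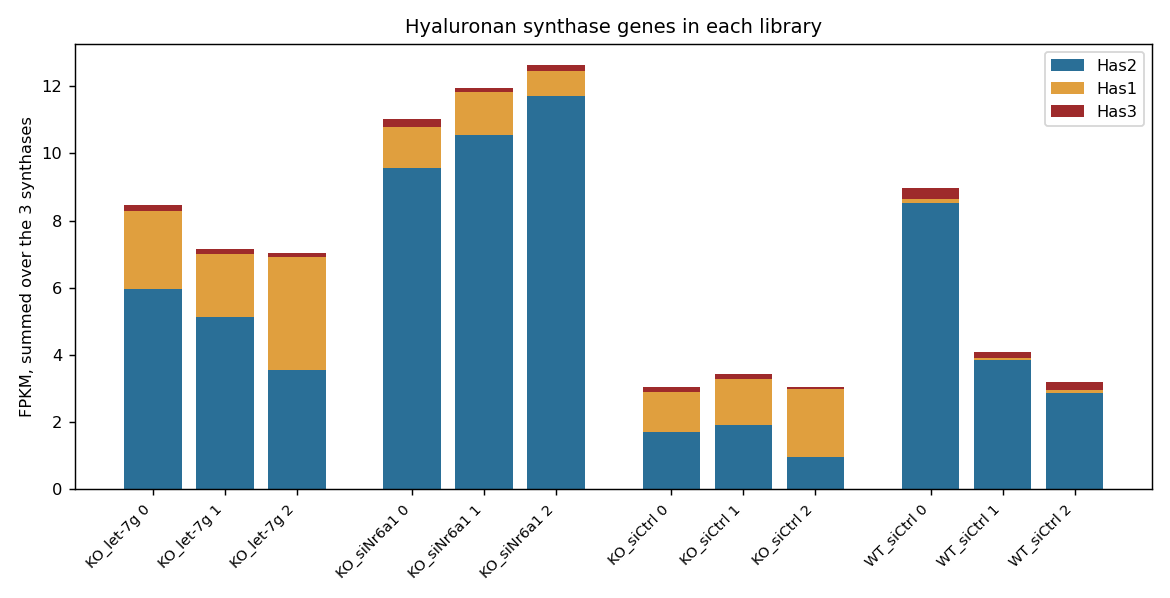
FPKM of Has2, Has1 and Has3, stacked for each of the 12 libraries, on a linear axis that starts at 0. The stack is tallest in the 3 KO_siNr6a1 libraries and nearly all Has2 there and in WT_siCtrl, while Has1 takes 39.4 to 65.8% of it in KO_siCtrl.

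Hyal2 and Hyal1 lie next to each other on the plus strand of mouse chromosome 9 (GRCm38 chr9:107567945-107572779 and chr9:107576927-107581710, with 4147 bases between them). Their differences had opposite signs where KO_let-7g was compared with KO_siCtrl or with KO_siNr6a1. Both were negative in KO_siCtrl against WT_siCtrl and in KO_siNr6a1 against KO_siCtrl. Of those, only Hyal1 against WT_siCtrl was called. Hyal2 encodes a surface-anchored hyaluronidase that cuts long chains. It measured 5.36, 6.68 and 5.24 FPKM in KO_let-7g and 16.9, 22.3 and 18.9 FPKM in KO_siNr6a1. It measured 18.5, 20.8 and 24.5 FPKM in KO_siCtrl and 20.9, 24.4 and 30.1 FPKM in WT_siCtrl. The 3 KO_let-7g libraries lay apart from and below the 9 others, which overlapped.

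KO_let-7g stood at 0.271 times the KO_siCtrl mean of Hyal2, a log2 difference of -1.72 ± 0.154, and lay -1.59 ± 0.154 below KO_siNr6a1. Both calls held in all 22 other settings. Hyal2 differed by -0.13 ± 0.154 between KO_siNr6a1 and KO_siCtrl and by -0.23 ± 0.154 between KO_siCtrl and WT_siCtrl, neither of them called.

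Hyal1 encodes the lysosomal enzyme that cuts chains into short fragments. It measured 1.43, 1.67 and 1.15 FPKM in KO_let-7g and 0.702, 0.744 and 0.614 FPKM in KO_siNr6a1. It measured 1.14, 0.821 and 0.891 FPKM in KO_siCtrl and 2.39, 2.77 and 2.93 FPKM in WT_siCtrl. The 4 groups did not overlap, with WT_siCtrl highest, then KO_let-7g, KO_siCtrl and KO_siNr6a1, although the lowest KO_let-7g library was only just above the highest KO_siCtrl library. KO_siCtrl lay below WT_siCtrl by -0.92 ± 0.108, or 0.353 times its mean.

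KO_let-7g lay above KO_siCtrl in Hyal1 by 0.31 ± 0.108 and above KO_siNr6a1 by 0.51 ± 0.108, and KO_siNr6a1 differed from KO_siCtrl by -0.21 ± 0.108, not called. The call against KO_siCtrl was lost in 9 of 21 other settings. The difference was 0.12 under quantile scaling, 0.26 under median-of-ratios scaling and 0.31 with the 2 groups alone, and the call was also lost without KO_siCtrl replicate 1 (0.26) or 2 (0.29), KO_let-7g replicate 0 (0.30) or 1 (0.23), or KO_siNr6a1 replicate 0 (0.31) or 2 (0.31). The difference from KO_siNr6a1 was 0.27 under quantile scaling, still called. The span of Hyal1 overlaps those of Naa80 and Hyal3 on the same strand, so its reads cannot be fully assigned where exons are shared. The FPKM of Hyal2 was 3.74 to 4.54 times that of Hyal1 in KO_let-7g, 24.0 to 30.8 times in KO_siNr6a1, 16.2 to 27.5 times in KO_siCtrl and 8.73 to 10.3 times in WT_siCtrl. Of the 3 genes shown above with a TACCTCA in the 3′ UTR, Hyal2 was lower in KO_let-7g than in KO_siCtrl, and Hyal1 and Has2 were higher.

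Cd44 and Vcan averaged more FPKM than the other 6 genes in the knockout groups, and both were higher in KO_siCtrl than in WT_siCtrl. Cd44 measured 100.3, 87.4 and 111 FPKM in KO_let-7g and 84.1, 77.0 and 79.7 FPKM in KO_siNr6a1. It measured 87.0, 83.2 and 92.6 FPKM in KO_siCtrl and 55.5, 43.8 and 42.1 FPKM in WT_siCtrl. All knockout libraries lay above all WT_siCtrl libraries. KO_siCtrl averaged 1.86 times the WT_siCtrl mean, a log2 difference of 0.89 ± 0.113.

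Against KO_siCtrl, Cd44 differed by 0.18 ± 0.113 in KO_let-7g and by -0.12 ± 0.113 in KO_siNr6a1, neither called. KO_let-7g and KO_siNr6a1 did not overlap, with a difference of 0.30 ± 0.113 that was not called. With the replicate number as a block the same difference of 0.30 was called, as it also was without WT_siCtrl replicate 0 (0.30) or 2 (0.30) or KO_let-7g replicate 1 (0.39). Gene-level values do not separate the splice variants of Cd44.

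Vcan measured 48.9, 57.6 and 50.9 FPKM in KO_let-7g and 54.7, 54.6 and 54.2 FPKM in KO_siNr6a1. It measured 49.1, 56.3 and 45.9 FPKM in KO_siCtrl and 17.8, 13.7 and 12.9 FPKM in WT_siCtrl. The 3 knockout groups overlapped, and every one of their libraries lay above every WT_siCtrl library. KO_siCtrl averaged 3.40 times the WT_siCtrl mean, a log2 difference of 1.71 ± 0.117. The differences from KO_siCtrl were 0.06 ± 0.117 in KO_let-7g, of either sign depending on the scaling, and 0.11 ± 0.117 in KO_siNr6a1, neither called. KO_let-7g minus KO_siNr6a1 was -0.06 ± 0.117.

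Tnfaip6 measured 2.20, 2.64 and 3.07 FPKM in KO_let-7g and 2.12, 2.25 and 2.56 FPKM in KO_siNr6a1. It measured 1.43, 0.945 and 2.08 FPKM in KO_siCtrl and 2.26, 4.03 and 3.25 FPKM in WT_siCtrl. KO_siCtrl lay below the other groups, which overlapped each other, by a narrow gap at its replicate 2. KO_siCtrl stood at 0.467 times the WT_siCtrl mean, a log2 difference of -0.75 ± 0.187 that was called in every setting tested.

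In KO_let-7g, Tnfaip6 averaged 1.77 times the KO_siCtrl mean, by 0.57 ± 0.187. That call was lost without KO_siCtrl replicate 0 (0.57) or 1 (0.40) and without KO_let-7g replicate 1 (0.56) or 2 (0.48), and also under quantile scaling (0.39) and with no filter on low values (0.57). In KO_siNr6a1 the difference from KO_siCtrl was 0.44 ± 0.187, not called, and it was called without KO_siCtrl replicate 2 (0.60). KO_let-7g minus KO_siNr6a1 was 0.13 ± 0.187, with overlapping groups and a sign that turned under quantile scaling.

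**Figure D3:**
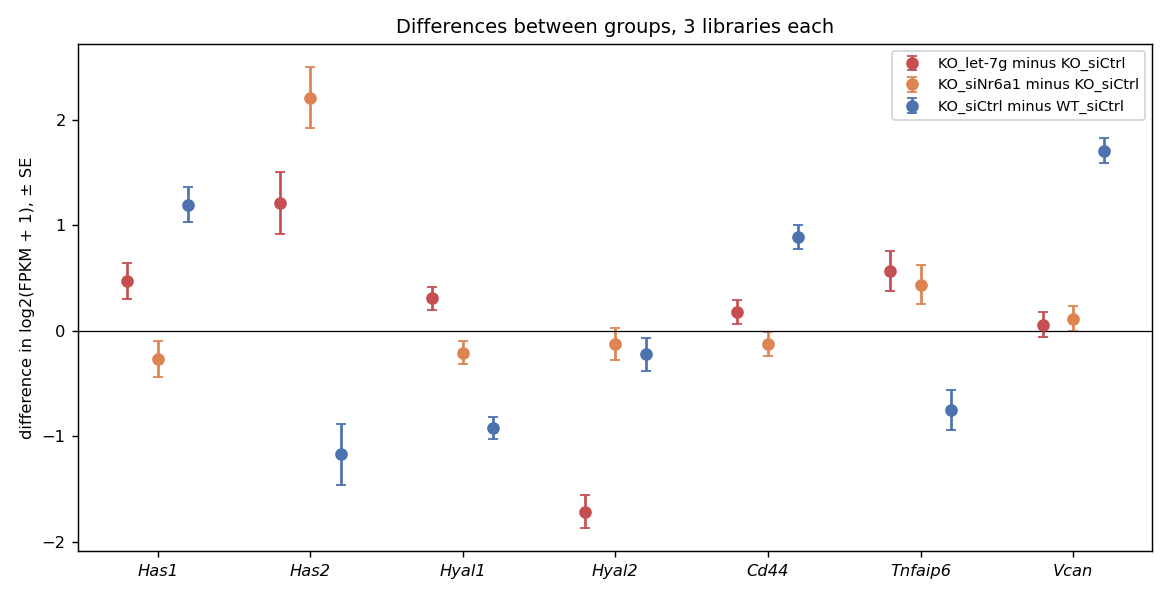
Difference in log2(FPKM + 1) with its standard error for the 7 tested genes, for KO_let-7g minus KO_siCtrl, KO_siNr6a1 minus KO_siCtrl and KO_siCtrl minus WT_siCtrl, 3 libraries per group. Has2 lies at 1.21, 2.21 and -1.17, Hyal2 lies at -1.72 in KO_let-7g minus KO_siCtrl, and Vcan lies at 1.71 in KO_siCtrl minus WT_siCtrl.

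Counted together, 3 of the 7 tested genes were called higher and 3 lower in KO_siCtrl than in WT_siCtrl, where 54.3% of all tested genes were called, 29.1% higher and 25.2% lower. In KO_let-7g against KO_siCtrl, 4 were called higher and 1 lower, beside 45.6% of all tested genes, 27.5% higher and 18.2% lower. Those 5 calls came to 2 without KO_siCtrl replicate 1, and to 3 without KO_siCtrl replicate 0 or without any 1 of the 3 KO_let-7g libraries. In KO_siNr6a1 against KO_siCtrl, 1 was called higher and 0 lower, beside 29.4% of all tested genes, 13.2% higher and 16.3% lower. Without KO_siCtrl replicate 2, there were 2 calls in that comparison. In KO_let-7g against KO_siNr6a1, 2 were called higher and 2 lower, beside 40.9% of all tested genes, 27.6% higher and 13.3% lower. Since the genes were picked with these levels known, nothing is read from the counts. Their median log2 difference was -0.23 in KO_siCtrl against WT_siCtrl, 0.31 in KO_let-7g and -0.12 in KO_siNr6a1 against KO_siCtrl, and 0.13 in KO_let-7g against KO_siNr6a1. The median over all tested genes was 0.04, 0.08, -0.06 and 0.12 in the same comparisons.

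The scale of the libraries bears on the direction of the small differences. Of all genes called in KO_let-7g against KO_siCtrl, 60.2% were higher, beside 58.7% under upper quartile scaling and 49.9% under quantile scaling. Quantile and median-of-ratios scaling draw the libraries to a common distribution or median ratio. A near-even split under them is thus largely set by their construction. In KO_let-7g against KO_siNr6a1 the share higher was 67.6%, against 61.7% under upper quartile, 51.9% under quantile and 48.5% under median-of-ratios scaling. Relative to the all-gene median of 0.12 in that comparison, Has1 differed by 0.61, Has2 by -1.12, Hyal1 by 0.39, Hyal2 by -1.71, Cd44 by 0.18, Tnfaip6 by 0.01 and Vcan by -0.18. With the replicate number as a block, 5248 of all genes were called in KO_siNr6a1 against KO_siCtrl, beside 3474 without it.

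A wider list of 36 other hyaluronan genes, of which 19 passed the filter, showed where the pathway around the 8 genes stood. The other 17 were at or under 0.282 FPKM in every library. In KO_siCtrl against WT_siCtrl, 6 of the 19 were called higher and 8 lower, beside 29.1% and 25.2% of all tested genes. Of those 6, Stab1 and Gfpt2 passed the filter through knockout libraries alone, so these calls were fixed in part by the filter. Against KO_siCtrl, 10 were called higher and 5 lower in KO_let-7g, beside 27.5% and 18.2% of all tested genes. In KO_siNr6a1, 6 were called higher and 4 lower than in KO_siCtrl, beside 13.2% and 16.3%. In KO_let-7g against KO_siNr6a1, 6 were called higher and 5 lower, beside 27.6% and 13.3%. The list was chosen with earlier results known, and nothing is read from these counts or from those by role that follow. Most genes named from it were also picked by their small adjusted p in these same libraries. The calls and adjusted p-values printed for them below are therefore descriptions and not tests. The median log2 differences of the 19 genes were -0.17, 0.33, 0.15 and 0.25 in these 4 comparisons.

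Of the 7 genes for the sugar precursors, all tested, 4 were called higher and 1 lower in KO_let-7g than in KO_siCtrl, and likewise 4 and 1 in KO_siNr6a1. Of all tested genes, 27.5% were called higher and 18.2% lower in KO_let-7g, and 13.2% and 16.3% in KO_siNr6a1. In KO_siCtrl against WT_siCtrl, 1 was called higher and 3 lower, beside 29.1% and 25.2% of all tested genes. The higher one, Gfpt2, stood at 0.218 to 0.466 FPKM in WT_siCtrl and passed the filter through knockout libraries alone. Its difference from WT_siCtrl was therefore fixed in part by the filter. Gfpt1, the first and rate-limiting enzyme of the hexosamine pathway, measured 57.6, 46.6 and 49.8 FPKM in KO_siNr6a1 and 28.9, 26.1 and 21.1 FPKM in KO_siCtrl, with no overlap. It rose by 0.99 ± 0.147 (adjusted p = 0.000654, limma). Ugp2, which makes UDP-glucose, measured 69.1, 78.2 and 77.5 FPKM in KO_siNr6a1 and 35.8, 39.9 and 29.0 FPKM in KO_siCtrl, and rose by 1.09 ± 0.167 (limma adjusted p = 0.000826).

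In KO_let-7g, Gfpt1 measured 51.5, 48.3 and 45.2 FPKM and lay 0.91 above KO_siCtrl (limma adjusted p = 0.000497). It was named for this second comparison after its values were seen. Pgm3, which converts N-acetylglucosamine phosphates, averaged 4.16 ± 0.151 FPKM in KO_let-7g and 6.78 ± 0.343 FPKM in KO_siCtrl (SD, n = 3 each) and fell by 0.59 on the log2 scale (limma adjusted p = 7.59e-05). Precursor enzymes thus did not all move one way.

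Of 8 further breakdown genes, 5 were tested. In KO_let-7g, 2 were called higher and 3 lower than in KO_siCtrl, beside 27.5% and 18.2% of all tested genes. The lower ones were Gusb, Tmem2 and Cemip. Gusb, the lysosomal beta-glucuronidase, measured 24.6, 22.8 and 24.9 FPKM in KO_let-7g, 57.8, 56.4 and 59.1 FPKM in KO_siNr6a1 and 45.6, 40.4 and 49.0 FPKM in KO_siCtrl. Its log2 difference was -0.87 ± 0.0773 against KO_siCtrl (limma adjusted p = 1.13e-05) and -1.23 ± 0.0773 against KO_siNr6a1 (limma adjusted p = 4.37e-06).

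Tmem2, now named Cemip2, encodes a cell-surface protein reported to degrade hyaluronan. It measured 28.1, 30.7 and 17.5 FPKM in KO_let-7g, 89.0, 91.8 and 73.3 FPKM in KO_siNr6a1 and 70.2, 63.6 and 52.2 FPKM in KO_siCtrl. KO_let-7g lay below the other groups without overlap, by -1.73 ± 0.195 against KO_siNr6a1 (limma adjusted p = 8.04e-05) and -1.28 ± 0.195 against KO_siCtrl (limma adjusted p = 0.000348). KO_siNr6a1 differed from KO_siCtrl by 0.45 ± 0.195, which was not called (limma adjusted p = 0.108). It was called with the replicate block (0.45, limma adjusted p = 0.016) and without KO_let-7g replicate 2 (0.45, limma adjusted p = 0.0348).

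Cemip, a secreted protein needed for hyaluronan breakdown in fibroblasts, is listed in the table as 9930013L23Rik. It measured 1.53, 0.806 and 1.10 FPKM in KO_let-7g, 2.10, 1.49 and 1.42 FPKM in KO_siNr6a1 and 7.74, 5.04 and 5.40 FPKM in KO_siCtrl. 9930013L23Rik fell by 1.71 on the log2 scale in KO_let-7g (limma adjusted p = 9.69e-05) and fell by 1.39 in KO_siNr6a1 (limma adjusted p = 0.000872). The KO_let-7g values of Tmem2 and Cemip against KO_siCtrl were singled out after they were seen. Hexa, a subunit of lysosomal beta-hexosaminidase, averaged 44.6 ± 1.49 FPKM in KO_siCtrl and 85.7 ± 8.36 FPKM in WT_siCtrl (SD, n = 3 each), a log2 difference of -0.92 (limma adjusted p = 6.06e-05).

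Of 5 other receptor genes, 3 were tested. Layn, which encodes the membrane receptor layilin, measured 2.63, 1.99 and 2.54 FPKM in KO_let-7g, 0.781, 0.803 and 0.967 FPKM in KO_siNr6a1, 0.598, 0.431 and 0.349 FPKM in KO_siCtrl and 11.9, 12.8 and 13.1 FPKM in WT_siCtrl. The 4 groups did not overlap, and KO_siCtrl was lowest. The log2 difference was -3.22 ± 0.105 in KO_siCtrl against WT_siCtrl (limma adjusted p = 2e-09). KO_let-7g lay 1.21 ± 0.105 above KO_siCtrl (limma adjusted p = 9.28e-06) and 0.87 ± 0.105 above KO_siNr6a1 (limma adjusted p = 0.000117).

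Stab1, a scavenger receptor of macrophages and sinusoidal endothelium, averaged 2.68 ± 0.22 FPKM in KO_siCtrl and 0.229 ± 0.0107 FPKM in WT_siCtrl (SD, n = 3 each). The log2 difference was 1.58 ± 0.103, and binding of hyaluronan by Stab1 was not measured. As Stab1 passed the filter through knockout libraries alone, that difference was fixed in part by the filter and is given without a p-value. Its levels stand beside summed blood markers of 0.592 to 0.889 FPKM in KO_siCtrl and 0.583 to 0.621 FPKM in WT_siCtrl, and summed endothelial markers of 0.0961 to 0.153 FPKM and 0.0222 to 0.11 FPKM in the same groups. The blood sum holds markers that differed in opposite directions. Csf1r, a receptor of macrophages, measured 0.486, 0.441 and 0.554 FPKM in KO_siCtrl and 0.109, 0.0939 and 0.13 FPKM in WT_siCtrl, with no overlap. Lyz2 averaged 0.201 ± 0.106 FPKM in KO_siCtrl and 0.468 ± 0.0109 FPKM in WT_siCtrl (SD, n = 3 each), also with no overlap. The macrophage gene Emr1 was listed at 0 in all KO_siCtrl libraries, and Ptprc, carried by all white blood cells, was at most 0.0177 FPKM there. In KO_let-7g, Csf1r was at most 0.106 FPKM while Stab1 averaged 4.14 ± 0.63 FPKM. None of these 11 markers averaged 1 FPKM, and their part in the Stab1 difference was not tested. Hmmr, a hyaluronan-binding protein that also sits on the mitotic spindle, averaged 57.3 ± 3.71 FPKM in KO_let-7g and 34.0 ± 2.97 FPKM in KO_siNr6a1, a difference of 0.74 ± 0.0996 (limma adjusted p = 0.000228).

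Of 9 genes listed as matrix partners, a label that is loose for the intracellular Habp4, 2 were tested. Habp4 was called lower in KO_let-7g and in KO_siNr6a1 than in KO_siCtrl, beside 18.2% and 16.3% of all tested genes. The other was called in neither. Habp4, an intracellular protein that binds RNA and hyaluronan, averaged 13.4 ± 0.45 FPKM in KO_let-7g, 17.5 ± 0.273 FPKM in KO_siNr6a1 and 24.6 ± 1.68 FPKM in KO_siCtrl (SD, n = 3 each). It fell by 0.83 on the log2 scale in KO_let-7g (limma adjusted p = 1.57e-05) and by 0.47 in KO_siNr6a1 (limma adjusted p = 0.00135). Of the 7 heavy chain and Tnfaip6 partners, 2 were tested. Both were called lower in KO_siCtrl than in WT_siCtrl, beside 25.2% of all tested genes. Both were called higher in KO_let-7g than in KO_siCtrl, beside 27.5%, and nothing is read from so few genes. Ptx3, the long pentraxin that TSG-6 binds in the hyaluronan matrix around the egg, averaged 7.14 FPKM in KO_siCtrl and 55.5 FPKM in WT_siCtrl, a log2 difference of -2.83 ± 0.333 (limma adjusted p = 3.44e-05).

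**Figure D4:**
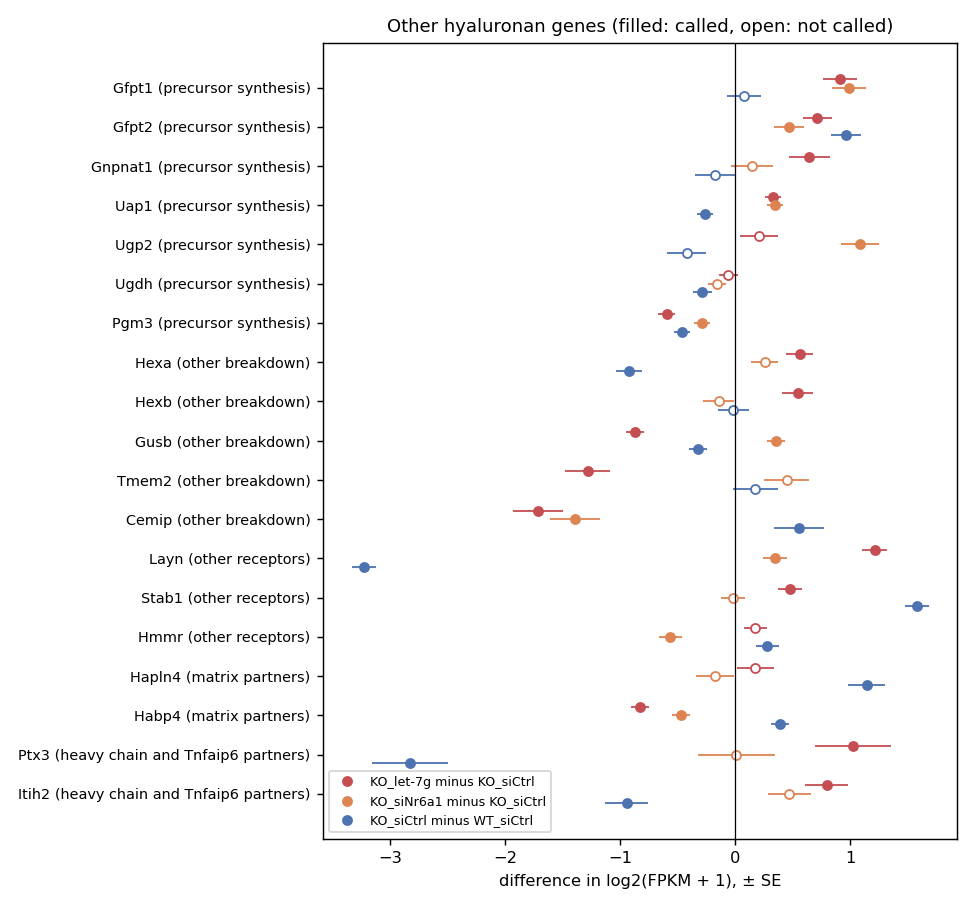
Difference in log2(FPKM + 1) with its standard error for the 19 tested genes of the wider list, grouped by role; filled points are called and open points are not. Layn is lowest in KO_siCtrl minus WT_siCtrl, at -3.22, while Gusb and Tmem2 lie left of 0 in KO_let-7g minus KO_siCtrl, at -0.87 and -1.28.

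The tested genes whose pattern over the 12 libraries was most like each hyaluronan gene were found by the root mean square distance between values on the log2(FPKM + 1) scale, each gene centred on its own mean. For Has2 they were Tnfaip3 at 0.38, Plod2 at 0.42 and Actg1 at 0.45, and for Has1 they were Sdc4 at 0.15, Nrarp at 0.16 and Cth at 0.20. For Hyal2 the nearest were B3gat3 at 0.16, 1110012D08Rik at 0.16 and Pqlc2 at 0.18, and for Hyal1 they were Ccpg1 at 0.06, Fam115c at 0.08 and Brdt at 0.11. For Cd44 they were Trmt6 at 0.10, Nipal1 at 0.11 and Mina at 0.11, and for Vcan they were Tpd52 at 0.16, Nceh1 at 0.16 and Gpr141 at 0.18. No gene was as near to Has2 as those nearest to the other 5 genes were to them. The distance was not scaled by the spread of a gene, and the group means of Has2 spanned the most, 2.21 log2 units. It therefore does not show that fewer genes share the pattern of Has2. The group means of Tnfaip6 spanned less than 1 log2 unit, and no such genes were sought for it.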

How the data were processed

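The authors deposited 1 table of FPKM for 21881 genes in 12 libraries. The tools TopHat 1.2.0 and Cufflinks 1.0.3 and the build mm9 are listed, with no roles, per the submitters' processing notes, and the sources used here state no annotation, setting or use of strand. FPKM holds no read counts, so no interval or limit of detection is given.

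Genes with at least 1 FPKM in at least 3 libraries (11801) were tested with limma 3.58.1 in R 4.3.3 on log2(FPKM + 1), with 1 coefficient per group over all 12 libraries, a variance trend on the mean, two-sided, and Benjamini-Hochberg adjustment over all tested genes at 0.05. Because groups share replicate numbers, the deviations of same-numbered libraries from their group means were correlated. All 12 correlations lay between 0.127 and 0.465, above the limit of 0.1 used here, so the numbers may pair the libraries. Libraries of different numbers were not set against each other, and no label says what a number marks, so a pairing is not shown. The reported fit does not use it, and the replicate block does.

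The 8 genes and the lists were chosen with earlier results of these data known. All 8 were named, with Nr6a1 and Dicer1, up to 4 called genes of the wider list with the smallest adjusted p per comparison, and the 3 tested genes most like each of the 8 whose group means span 1 log2 unit. Exceptions are marked in the text. Seed matches were read from GRCm38 transcripts (GENCODE annotation), and microRNA sequence from RefSeq. Alternatives were other pseudocounts, filters, scalings, variance models, weights, a replicate block, the 2 compared groups alone, and leaving out each library.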

Additional observations from a re-analysis of the deposited data

How the results depend on the processing

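Of 28 differences of the 7 tested hyaluronan genes, each recomputed under 21 or 22 other settings, 18 kept their direction and their side of the threshold, 8 changed a call and 2 turned in sign. Of 20 differences of named genes of the wider list, 19 kept both, and the exception was Tmem2 in KO_siNr6a1. Vcan in KO_let-7g against KO_siCtrl was -0.0257 under median-of-ratios scaling and -0.0111 to 0.138 when 1 library was left out. Tnfaip6 in KO_let-7g against KO_siNr6a1 was -0.0769 under quantile scaling and -0.00558 with library weights.

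The number of the 7 genes called in KO_let-7g against KO_siCtrl, 5 as reported, was 3 with no filter, 2 with a mean of at least 5 FPKM, 2 under quantile scaling, 3 under median-of-ratios scaling, 3 with the 2 groups alone, and 2 to 5 when 1 library was left out. In KO_siNr6a1 it was 1 as reported, 4 with library weights and 1 to 2 when 1 library was left out. A mean of at least 5 FPKM, which leaves fewer genes tested, gave 3 in place of 6 in KO_siCtrl against WT_siCtrl and 2 in place of 4 in KO_let-7g against KO_siNr6a1, and 9 in place of 14 of the wider list in KO_siCtrl against WT_siCtrl. All genes called in KO_siNr6a1 numbered 5528 with library weights and 5248 with the replicate block, beside 3474. Apart from Cd44 in KO_let-7g against KO_siNr6a1 and Tmem2 in KO_siNr6a1, the block changed no call of a named hyaluronan gene in the comparisons reported. Where no construction of the setting gives it, the cause was not tested.

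With 3 libraries per group and an unknown read depth, genes near or under 1 FPKM carry the least certain values. These are Has1, Has3, Hyal1, Tnfaip6 and, in KO_siCtrl, Has2, which lay at 0.979 to 1.92 FPKM there. KO_siCtrl is the reference for the Has2 ratios of KO_let-7g and KO_siNr6a1. FPKM cannot show a change in the total RNA of a cell.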
